A study of Danio rerio with 24 samples.

Results

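The genes described here are 6 zebrafish genes outside the classical inflammatory genes, *plekhs1.3*, *plekhf1*, *snap23.2*, *chst11*, *marcksl1b* and *mid1ip1b*. They were chosen by their measured response, array signals that were higher after lipopolysaccharide (LPS), so their LPS values are given as a description. Where a fit of the LPS differences between tissues called one of these genes, nothing was read from the call. Matching the accession listed for each probe to RefSeq names gave 12 probes for the 6 genes, of 43603 probes and 12858 named genes on the array. *Plekhs1.3* and *marcksl1b* had 3 probes each, *chst11* and *mid1ip1b* had 2 each, and *plekhf1* and *snap23.2* had 1 each. Where a gene had several, its values are those of the probe with the highest mean signal unless another is named. All 12 probes passed the filter on the raw signal in every comparison.

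LPS, the outer membrane glycolipid of Gram-negative bacteria, sets off an acute inflammatory response in vertebrates. None of the 6 genes encodes a cytokine or a cytokine receptor, and the roles below follow what is known from mammals. *Plekhf1* encodes a protein whose FYVE domain binds a phosphoinositide of endosomes and whose pleckstrin homology (PH) domain also contacts membrane lipids. *Plekhs1.3* is a member of another PH domain family whose function is poorly known. *Snap23.2* belongs to the SNAP23 family, SNARE proteins that drive the fusion of secretory vesicles with the plasma membrane outside neurons. *Chst11* encodes a Golgi sulfotransferase of chondroitin chains, and *marcksl1b* a myristoylated protein that binds actin and is a substrate of protein kinase C. *Mid1ip1b* belongs to the MID1IP1 family, which in mammals binds acetyl-CoA carboxylase and favours fatty acid synthesis.

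Wild-type adult zebrafish of 9 months, kept on a normal diet, were injected intraperitoneally with 10 μg of LPS, or with the same volume of PBS as the control, and liver, kidney and muscle were taken 3 hours later. The 6 groups of tissue and treatment held 4 arrays each, every array carrying RNA of a pool of 3 fish. Control fish had thus been injected too, and the sources used here do not give the sex of the fish. In bulk tissue, a change in the number of cells of a type and a change in RNA per cell cannot be told apart.

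Signals are given as log2 values relative to the 75th percentile of the same array. Between 39.4% and 84.8% of probes were well above background on an array, and no spot was saturated. The arrays of kidney PBS replicates 1 to 3 shared a slide that held no LPS array, and their share of probes above background (64.2% to 84.8%) exceeded that of the other kidney arrays. Kidney PBS replicate 4 lay on the slide of LPS replicates 1 to 3. Kidney PBS replicates 1 to 3 were scanned on day 1, and the other kidney arrays and all liver arrays on day 3. Muscle arrays were scanned on days 2 and 4. The part of the scan day in the differences below was not tested. Summed markers of skeletal muscle were 492 to 3154 times the 75th percentile in PBS muscle, against 22.2 to 44.3 in PBS liver and 28.7 to 342 in PBS kidney. Hepatocyte markers summed to 437 to 1669 in PBS liver. Their ranges in PBS kidney, 11.3 to 1188, and in PBS muscle, 73.5 to 529, both overlapped that of the liver. Kidney tubule markers summed to 15.0 to 94.9 in PBS kidney and to 11.2 to 56.2 in PBS liver.

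In the kidney, the main blood-forming tissue of fish, *plekhs1.3* had the largest difference of the 6 genes. Its brightest probe read -1.78, -1.15, -3.68 and -0.19 in the PBS pools and 2.97, 3.65, 2.96 and 4.33 in the LPS pools. The groups did not overlap, and the PBS arrays were spread more widely. The difference was 5.18 ± 0.72 (SE) on the log2 scale, or 36.2-fold, the 13th largest among the 40126 probes tested in the kidney. *Chst11* read -4.71, -3.93, -5.74 and -4.49 after PBS and -0.91, -1.51, -0.56 and -0.29 after LPS. The PBS signals were near the limit of the array, only 2 of the 4 being well above background, and the log2 difference was 3.90 ± 0.46.

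*Snap23.2* read -2.29, -0.65, -2.37 and -0.17 in PBS kidneys and 2.31, 2.41, 2.51 and 2.85 in LPS kidneys. The LPS arrays were nearly equal (SD 0.23, n = 4) and stood clear of the PBS arrays, with a log2 difference of 3.89 ± 0.55. *Marcksl1b* read 1.93, 2.70, 0.95 and 2.76 after PBS and 4.75, 4.67, 5.01 and 5.68 after LPS. It was well above background on every PBS kidney array, and its log2 difference was 2.94 ± 0.48, or 7.70-fold. The kidney groups of the other 2 genes overlapped. *Mid1ip1b* read 2.22, 1.93, 0.65 and 3.37 after PBS and 3.12, 4.03, 3.69 and 4.26 after LPS, a log2 difference of 1.74 ± 0.57. *Plekhf1* read 2.56, 4.94, 2.12 and 4.04 after PBS and 4.70, 4.55, 4.93 and 5.51 after LPS, a log2 difference of 1.51 ± 0.63.

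In all, 4 of the 6 genes had every LPS kidney array above every PBS kidney array, a pattern that 2.02% of all probes showed. Their median log2 difference was 3.42, and that of all probes was 0.02. Since these values chose the genes, nothing was read from the excess. On the one slide that held both treatments (1 PBS and 3 LPS arrays), the log2 differences were 3.38 for *plekhs1.3*, 3.50 for *chst11*, 2.58 for *snap23.2* and 2.05 for *marcksl1b*. The same comparison gave 0.69 for *plekhf1* and 0.25 for *mid1ip1b*. Neutrophil markers (5 genes) summed to 36.0 to 237 in PBS kidneys and 92.8 to 172 in LPS kidneys, and none of the 4 that were tested there passed. Lymphocyte markers (6 genes) summed to 0.915 to 4.72 and 2.03 to 3.74.

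**Figure D1:**
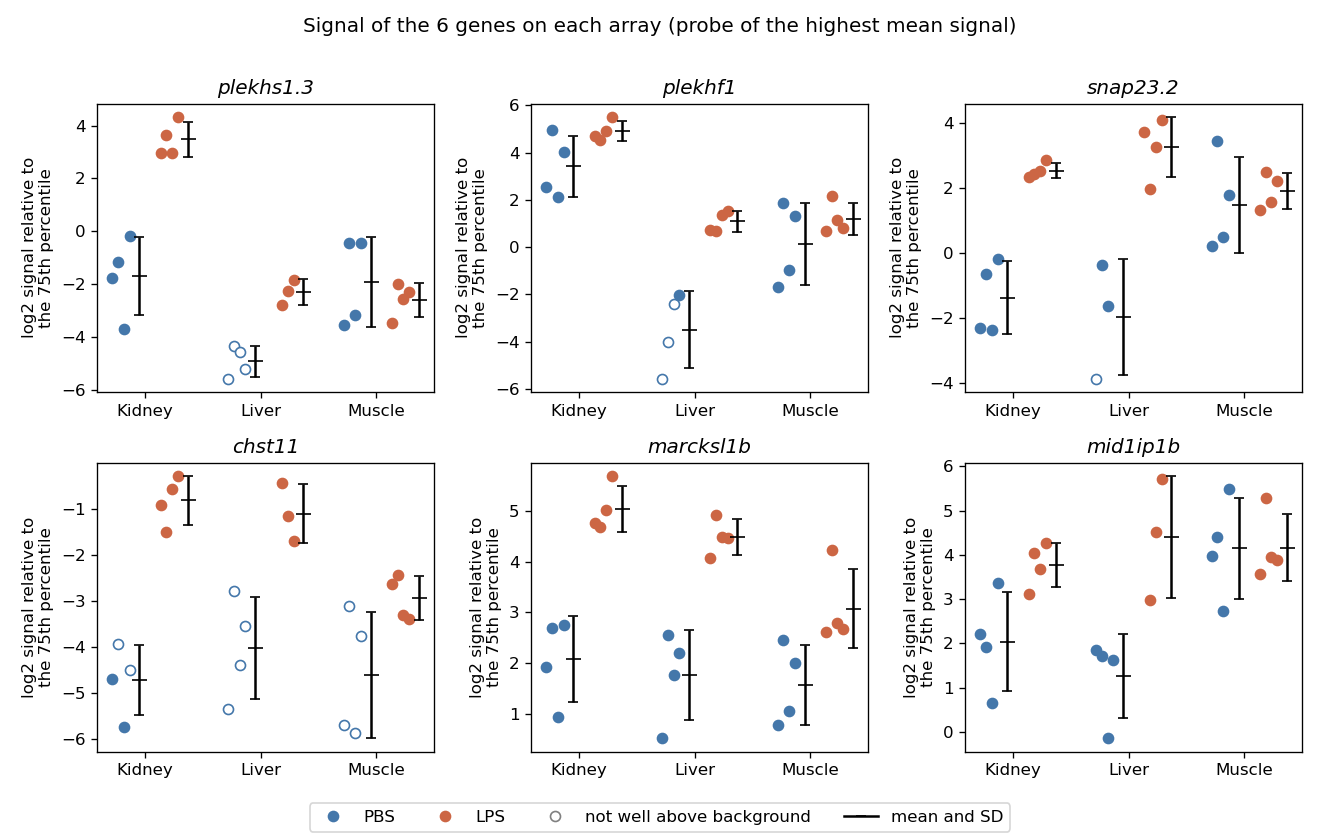
Log2 signal relative to the 75th percentile (vertical axis) of the brightest probe of each gene on the single arrays of each tissue, PBS in blue and LPS in orange, with the mean and SD of each group beside the points. Open points were not well above background. Every LPS point lies above every PBS point for 4 genes in the kidney, for 6 in the liver and for 1, *marcksl1b*, in the muscle.

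In the liver, the largest differences belonged to *snap23.2* and *plekhf1*, and the order of the genes was unlike that in the kidney. *Snap23.2* read -3.86, -0.36 and -1.63 in 3 PBS livers, the spot of replicate 4 being marked as an outlier, and 3.72, 1.95, 3.25 and 4.08 in LPS livers. Of these 3 PBS arrays, 2 were well above background. The groups were far apart, with a log2 difference of 5.20 ± 0.82, or 36.7-fold. Without PBS replicate 1 the log2 difference was 4.24. *Plekhf1* read -5.57, -3.99, -2.39 and -2.01 after PBS and 0.75, 0.70, 1.38 and 1.53 after LPS. Only 1 of the 4 PBS arrays was well above background, whereas the LPS arrays were closely grouped, and the log2 difference was 4.58 ± 0.71. *Mid1ip1b* read 1.84, 1.72, -0.15 and 1.62 after PBS and 2.98, 4.51 and 5.72 in the 3 LPS livers with a usable spot. The difference of 3.14 ± 0.73 came with the widest spread of the LPS groups (SD 1.38, n = 3).

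*Marcksl1b* read 0.53, 2.56, 1.77 and 2.2 in PBS livers and 4.06, 4.92, 4.47 and 4.46 in LPS livers. Its log2 difference of 2.72 ± 0.48 was close to that in the kidney. For *chst11* and *plekhs1.3* no PBS liver array was well above background, so the fold is given as a lower bound. Each PBS array entered with the weakest signal of any probe well above background on it, or with the gene's measured signal where higher. *Chst11* read -0.44, -1.17 and -1.70 after LPS and was at least 3.21-fold higher than after PBS, where it read -5.36, -2.78, -4.39 and -3.55. *Plekhs1.3* read -2.80, -2.26 and -1.84 after LPS, with -5.59, -4.33, -4.57 and -5.21 after PBS, and was at least 1.4-fold higher. The measured log2 differences of the pair were 2.92 ± 0.64 and 2.63 ± 0.47.

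On their brightest probes, all 6 genes had LPS livers above PBS livers without overlap, a pattern that 5.2% of all probes tested there showed. Their median log2 difference was 3.03 against 0.06 for all probes. The dimmest *plekhs1.3* probe and the dimmer *chst11* probe did overlap in the liver. These values chose the genes, so nothing was read from the excess. The LPS liver of replicate 1 shared a slide with 3 PBS livers. On that slide the log2 differences were 4.71 for *snap23.2*, 3.54 for *plekhf1* and 1.89 for *marcksl1b*, the LPS spots of the other 3 genes being marked as outliers. Summed markers of neutrophils, macrophages and oocytes differed between the liver groups without overlap, and the sums of the other marker lists overlapped. The 5 neutrophil markers summed to 2.48 to 11.7 after PBS and 16.2 to 56.0 after LPS, and the 7 macrophage markers to 4.18 to 23.4 and 24.9 to 61.0. The log2 differences of the macrophage markers ran from -0.09 to 2.99, with a median of 0.60. The 11 oocyte markers summed to 143 to 549 after PBS and 62.4 to 120 after LPS. Among neutrophil and macrophage markers, *npsn* and *mfap4.1* passed the test as higher after LPS (0.352% of all probes did), and no oocyte marker passed. At an unadjusted p under 0.05 in limma all 11 oocyte markers were lower after LPS, as were 3307 of all 39488 probes. *Csf1ra*, a defining macrophage receptor, was not well above background on any liver array. The part of these cell types in the signals of the 6 genes was not tested.

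In muscle the differences were small for most of the 6 genes. *Marcksl1b* read 0.79, 2.46, 1.06 and 2.02 after PBS and 2.62, 4.22, 2.79 and 2.67 after LPS, the only one of the 6 without overlap (0.609% of all probes), with a log2 difference of 1.5 ± 0.54. *Chst11* read -5.70, -3.12, -5.86 and -3.76 after PBS, never well above background, and -2.63, -2.44, -3.30 and -3.40 after LPS. With this processing it was at least 1.96-fold higher, though the lowest LPS array did not clear the highest PBS array. With the normexp background correction its log2 difference in muscle was 0.32, which lies below that bound.

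*Plekhf1* ran from -1.69 to 1.86 in PBS muscle and from 0.67 to 2.14 in LPS muscle, with a log2 difference of 1.06 ± 0.79. *Snap23.2* ran from 0.20 to 3.44 and from 1.31 to 2.50, with a difference of 0.43 ± 0.69. *Mid1ip1b* was well above background on every muscle array, 2.72 to 5.49 after PBS and 3.56 to 5.28 after LPS, and differed by 0.02 ± 0.63. *Plekhs1.3* was the only one of the 6 whose mean was lower after LPS, at -0.68 ± 0.77, its PBS arrays falling at -3.57, -0.46, -3.18 and -0.45 and its LPS arrays at -3.49, -2.01, -2.58 and -2.31. Its LPS values lay within the range of the PBS values. The median of the 6 log2 differences was 0.74 and that of all probes -0.14. Within the slide that held 2 arrays of each treatment the differences were 1.97 for *marcksl1b*, 1.94 for *chst11* and -0.48 for *plekhs1.3*. Within the slide of 1 array each they were 0.16, 0.49 and -3.03. For *plekhf1*, *snap23.2* and *mid1ip1b* they were 1.45, 0.91 and 0.50 on the first of these slides and -1.19, -2.13 and -0.85 on the second, where the sign was opposite to that over all muscle arrays. The 75th percentile of the muscle arrays, against which these values are set, was 379 to 732 units after PBS and 738 to 1811 after LPS.

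Over the 3 tissues joined in a single comparison, without a term for the tissue, the log2 differences were 3.05 for *snap23.2*, 2.78 for *chst11*, 2.54 for *plekhs1.3*, 2.39 for *marcksl1b*, 2.38 for *plekhf1* and 1.61 for *mid1ip1b*. Of all probes 0.3% were called in that comparison, 0.298% as higher after LPS. With the slide as a fixed block the values were 1.69 for *snap23.2*, 2.14 for *chst11*, 0.24 for *plekhs1.3*, 1.67 for *marcksl1b*, 1.34 for *plekhf1* and 0.12 for *mid1ip1b*. The unblocked values join unlike tissues: for *plekhs1.3* they combine 5.18 in the kidney with -0.68 in muscle. *Marcksl1b* had the narrowest range over tissues, from 1.5 to 2.94.

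The probes of a gene mostly gave the same picture. For *marcksl1b* the 3 probes correlated at r = 0.979 to 0.991 over 24 arrays, and their log2 differences were 2.94 to 3.72 in the kidney, 2.72 to 3.01 in the liver and 1.44 to 1.60 in muscle. For *plekhs1.3* r was 0.957 to 0.987, with 4.84 to 5.18 in the kidney, 1.66 to 2.63 in the liver and -0.68 to -0.21 in muscle. All 3 of its probes were thus higher after LPS in kidney and liver and lower in muscle. The pair of *mid1ip1b* correlated at r = 0.984 over 23 arrays, with 1.74 and 1.77 in the kidney, 3.14 and 3.54 in the liver and 0.02 and 0.20 in muscle. Arrays share pools, slides and scaling, so these correlations are descriptions.

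*Chst11* was the exception. Its brighter probe was well above background on 13 arrays and its dimmer one on 1 of 24, a kidney LPS array, and the pair correlated at r = 0.633 over 22 arrays. That array, LPS replicate 4, read -2.15, and the other LPS kidneys read -5.38, -4.64 and -4.48 on the dimmer probe, so no fold is given. In the liver it differed by 0.29 ± 0.50 and in muscle by -0.34 ± 0.59, where neither group was above background. The *chst11* values in this text rest on the brighter probe.

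**Figure D2:**
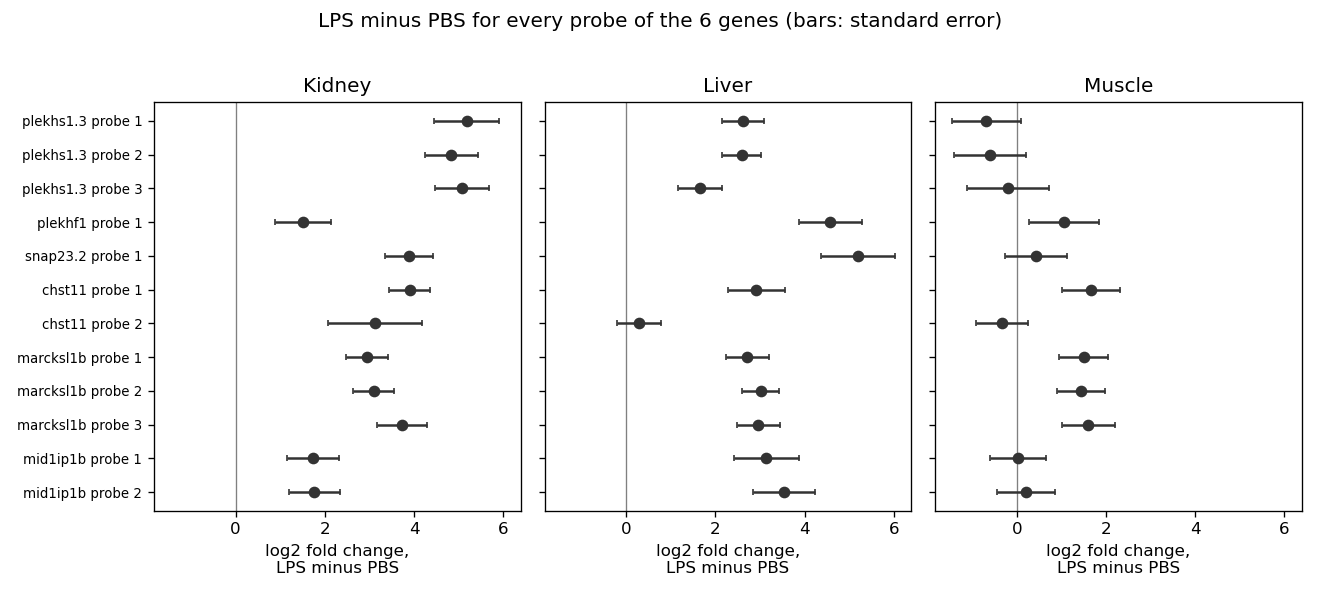
Log2 fold change of LPS over PBS (horizontal axis) of each of the 12 probes in the 3 tissues, with bars for the standard error. Probes of *plekhs1.3*, *marcksl1b* and *mid1ip1b* lie close together, whereas the dimmer *chst11* probe falls at 0.29 in the liver against 2.92 for the brighter one.

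The PBS arrays also give the level of each gene in the control tissues. They are one side of the contrast that chose the genes, and choosing genes for a higher signal after LPS favours low PBS values, so the tissue differences below are a description and no p-value is given for them. The share of all probes without overlap between PBS tissues was not computed. Nothing was therefore read from whether the groups below overlapped. *Plekhf1* had the widest range, from kidney (3.41 ± 1.31, SD, n = 4) over muscle (0.14 ± 1.73) to liver (-3.49 ± 1.63), and no 2 of these groups overlapped. Only 1 of its 4 PBS liver arrays was well above background, so the measured log2 differences of -6.90 ± 0.99 (SE) for liver minus kidney and -3.63 ± 0.99 for liver minus muscle rest largely on signals not well above background. With the normexp background correction the latter was -2.58. Muscle minus kidney, where every array was well above background, was -3.28 ± 0.99.

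*Plekhs1.3* was not well above background on any PBS liver array. Kidney exceeded liver by at least 2.12-fold and muscle exceeded liver by at least 1.83-fold, while muscle minus kidney was -0.21 ± 0.86. *Mid1ip1b* was highest in muscle (4.15 ± 1.14, SD, n = 4). Its log2 difference was -2.89 ± 0.71 (SE) for liver minus muscle, without overlap, and -0.78 ± 0.71 for liver minus kidney. Its kidney and muscle arrays overlapped, with a difference of 2.11 ± 0.71.

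*Snap23.2* was highest in PBS muscle too, 1.48 ± 1.47 against -1.37 ± 1.13 in kidney and -1.95 in liver, and the muscle arrays overlapped neither tissue. *Marcksl1b* had PBS means of 2.08 in kidney, 1.76 in liver and 1.58 in muscle, which overlapped throughout. Its 95% interval was -1.60 to 0.96 for liver minus kidney, -1.78 to 0.78 for muscle minus kidney and -1.10 to 1.46 for liver minus muscle. For *chst11* the 3 PBS means of -4.72, -4.02 and -4.61 lay near the array's limit and allow no order.

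In a limma fit of the 12 PBS arrays over 41702 probes, a gene counted as called when any of its probes reached an adjusted p under 0.05. *Plekhf1* and *plekhs1.3* were called as lower in liver than in kidney (2.46% of all probes were), none of the 6 between muscle and kidney (7.06%, of which 3.62% were higher in muscle), and these 2 genes and *mid1ip1b* as lower in liver than in muscle (4.16%, with 4.39% higher and 8.55% in either direction). Genes were counted on any probe and the shares count probes, so the 2 are not a like measure. For liver against muscle *plekhs1.3* passed on its brightest probe alone, and for liver against kidney on all but its dimmest. Because the same PBS arrays helped to choose the genes, these counts describe the fit, and nothing was read from them. At an unadjusted p under 0.05, *plekhf1*, *snap23.2* and *mid1ip1b* passed between muscle and kidney, as did 8190 of all 41702 probes. With the replicate number as a block these 3 were called there, in a fit that called 14.7% of all probes. The same fit added *snap23.2* as lower in liver than in muscle, where it called 7.24% of all probes as lower, and the dimmer probe of *chst11*, never above background in either tissue, as higher in liver than in kidney, where it called 16% as higher. When single PBS arrays were left out, *plekhf1* was called against kidney in 12 of 12 fits and against muscle in 7, *mid1ip1b* against muscle in 8, and *plekhs1.3* against kidney in 6 and against muscle in 4. None of the 6 was called between liver and muscle without liver replicate 3 or without muscle replicate 2 or 4. No slide held PBS arrays of more than 1 tissue, and with the slide as a random block only *plekhf1* was called against kidney and only *mid1ip1b* against muscle. For the fits without single arrays and with the slide block, the share of all probes called was not computed. Nothing was read from the calls in these fits. Neutrophil markers summed to 36.0 to 237 in PBS kidney and 2.48 to 11.7 in PBS liver, and each PBS muscle array lay below each PBS kidney array. Their part in the order of the tissues was not tested.

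**Figure D3:**
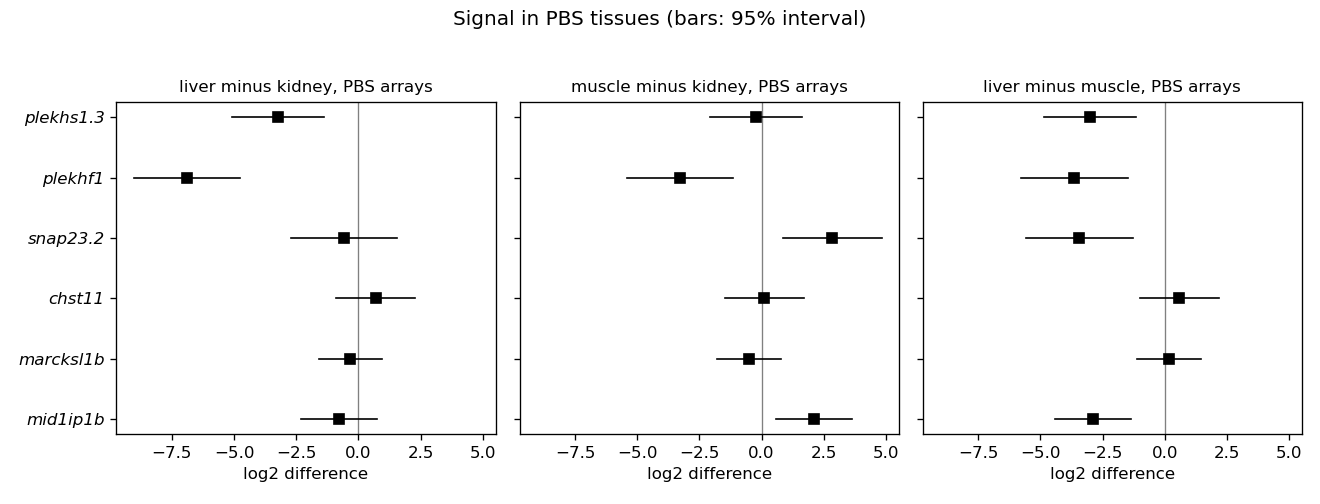
Log2 difference between tissues of PBS fish (horizontal axis) for the brightest probe of each gene, with squares for the difference and lines for its 95% interval, over 4 arrays a tissue except 3 for *snap23.2* in liver. *Plekhf1* falls at -6.90 for liver minus kidney, with 1 of its 4 PBS liver arrays well above background. The intervals of *marcksl1b* and *chst11* span 0 in the 3 comparisons. PBS arrays helped to choose the genes, so the intervals are a description.

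The LPS differences of the tissues were also set against each other, in a fit of the 6 groups. These are differences of the values that chose the genes and are given without a p-value. The widest gap was that of *plekhs1.3*, whose measured log2 LPS difference was 5.86 ± 1.01 larger in kidney than in muscle, both tissues being well above background on all arrays. *Snap23.2* followed with a gap of 4.77 ± 1.08 between liver and muscle, resting on 3 PBS livers of which 2 were well above background. *Mid1ip1b* differed by 3.13 ± 0.98 in the same comparison. The gap of *plekhf1* was 3.52 ± 1.1 there, resting on PBS livers of which 1 of 4 was well above background. The median over all probes was 0.37 for liver minus muscle and 0.21 for kidney minus muscle.

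For *marcksl1b* the LPS difference of kidney minus that of liver was 0.23 ± 0.71. For *plekhs1.3* and *chst11*, never well above background in PBS liver, no gap against liver is given. In the fit none of the 6 genes was called for kidney against liver (0 of 42278 probes called, 3317 at an unadjusted p under 0.05), for kidney against muscle (0 called, 5206 unadjusted) or for liver against muscle (1 probe called, 0.00237%, 5593 unadjusted). Nothing was read from these counts. Kidney PBS replicate 4 was the only PBS kidney array on a slide with LPS arrays. In the fit without it, *plekhs1.3*, *snap23.2*, *marcksl1b* and *chst11* were called for kidney against muscle. The call of *chst11* came through its dimmer probe, well above background on 1 of 24 arrays. *Plekhs1.3* alone was called without kidney PBS replicate 2 or muscle PBS replicate 1 or 3. These calls rest on the values that chose the genes. The share of all probes called in those fits was not computed, and nothing was read from these calls either.

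Relatives of the 6 genes were measured on the same arrays. Lists by family or pathway held 149 other genes, of which 90 had a probe. None was called among the 88 tested in kidney, the 87 in liver and the 87 in muscle by limma, and at an unadjusted p under 0.05 there were 2 higher and 6 lower in the kidney, 17 and 8 in the liver, and 0 and 3 in muscle. In the kidney 0.0797% of all probes were called as higher and none as lower, in the liver 0.352% and 0.0633%, and in muscle none. At the unadjusted threshold, 1491 probes were higher and 1238 lower of 40126 in the kidney. In the liver they were 2711 and 3307 of 39488, and in muscle 377 and 858 of 40381. A relative counted when any of its probes passed, so these probe counts are not a like measure. Without liver PBS replicate 2, 8 of the relatives were called in the liver, in a fit that called 1.8% of all probes as higher and 4.48% as lower: *papss2b*, *stx2a*, *hgs* and *marcksl1a* as higher, and *marcksb*, *chst14*, *b3gat3* and *mid1ip1l* as lower. Without liver LPS replicate 2, *papss2b* alone was called (adjusted p = 0.0149), with 0.528% of all probes called as higher. The list medians were -0.23 to 0.01 in the kidney, -0.03 to 0.47 in the liver and -0.47 to 0.26 in muscle.

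Values of the nearest relatives follow, without a test against the 6 genes. *Snap23.1*, the neighbour of *snap23.2* on the chromosome and a member of the same family, was well above background on every array. It ran from 2.68 to 3.18 in PBS kidneys and from 2.28 to 3.12 in LPS kidneys, with log2 differences of -0.38 in kidney, 0.73 in liver and 0.03 in muscle. *Plekhs1.3* lies between *plekhs1.2* and *plekhs1.4*, with *plekhs1.1* on the far side of *plekhs1.2*. The brightest probes of *plekhs1.1* and *plekhs1.2* were not well above background on any kidney or liver array. *Plekhf2*, the second PH and FYVE protein of its kind, differed by 0.21 in kidney, -1.0 in liver and 1.0 in muscle.

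Among MARCKS proteins, *marcksl1a* differed by 1.18 in kidney, 1.48 in liver and 0.42 in muscle, *marcksa* by 0.82, 1.52 and -0.68, and *marcksb* by 1.11, -2.55 and 0.70. The liver value of *marcksb* had an adjusted p of 0.121 and a sign opposite to that of *marcksl1b*. *Mid1ip1l*, a second MID1IP1 gene, differed by -1.75 in liver (adjusted p = 0.181) and *mid1ip1a* by -1.09, against 3.14 for *mid1ip1b*. *Thrsp*, a relative linked to fatty acid synthesis in mammals, differed by 0.04 there with an SE of 1.24. In chondroitin synthesis, *chst14*, a dermatan sulfotransferase, differed by -2.22 in liver. *Papss2b*, which makes the sulfate donor that sulfotransferases use, had the lowest adjusted p of its list in the liver and was picked after its values were seen, with a log2 difference of 2.53 ± 0.52 (adjusted p = 0.0749) and PBS livers at -2.34 to -1.63 against LPS livers at -0.90 to 1.33. None of these liver values passed the test. Of the remaining SNAP genes, *snap25a* and *snap25b* were well above background on at most 3 of the 4 arrays of any group.

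**Figure D4:**
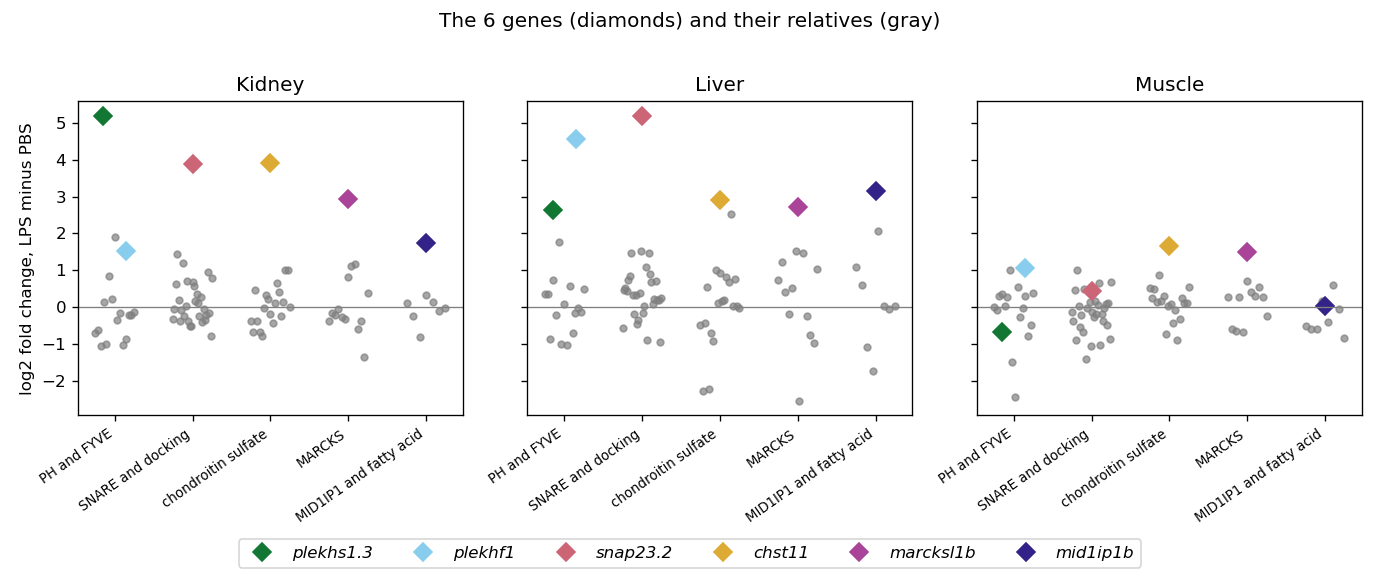
Log2 fold change of LPS over PBS (vertical axis) in the 3 tissues for the 6 genes (diamonds) and for the relatives in the 5 lists (gray points, brightest probe of each gene). The relatives spread from -2.55 to 2.53 in the liver, where the brightest probes of the 6 genes lie between 2.63 and 5.20. The 6 genes were chosen for a higher signal after LPS, so nothing was read from this gap. Of their dimmer probes, not drawn, those at 1.66 (*plekhs1.3*) and 0.29 (*chst11*) fell within the relatives' range in the liver. The other dimmer probes lay above it.

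The genes whose pattern over the arrays was most like that of each gene were looked for among 10757 named genes. For *marcksl1b* they were *tnfrsf9a* (r = 0.976), *socs3a* (r = 0.962) and *card9* (r = 0.953) over 24 arrays. For *chst11*, well above background on 13 arrays, they were *marcksl1b* itself (r = 0.958), *tnfrsf9a* (r = 0.952) and *tnfa*, the gene of tumour necrosis factor (r = 0.928), over 23. *Snap23.2* was closest to *saa*, an acute-phase protein gene (r = 0.928), followed by *pfkfb3* (r = 0.896) and *fosl2* (r = 0.891). *Plekhs1.3* was closest to *fam49al* (r = 0.898), *myca* (r = 0.879) and *scarb2a* (r = 0.879). *Scarb2a*, whose mammalian counterpart is a lysosomal membrane protein, was also second for *plekhf1* (r = 0.908), between *si:ch211-264f5.2* (r = 0.917) and *moxd1* (r = 0.902). The likeness was weakest for *mid1ip1b*, with *yap1* (r = 0.840), *smtnl* (r = 0.832) and *trib3* (r = 0.83).

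Within the groups, the 6 genes also deviated together from array to array. The deviations from the group means correlated at r = 0.308 to 0.865 between pairs of the 6, highest for *chst11* with *marcksl1b* and lowest for *chst11* with *mid1ip1b*, over 22 to 24 arrays. The same deviations ran against the array's own 75th percentile, with r from -0.754 for *snap23.2* to -0.468 for *chst11*, so that a brighter array tended to give a lower value of each of the 6 genes. All values are set against that percentile, and the part of this in the spread of the PBS groups was not tested. Neither set of correlations was computed for other genes, so nothing particular to the 6 was read from them.

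**Figure D5:**
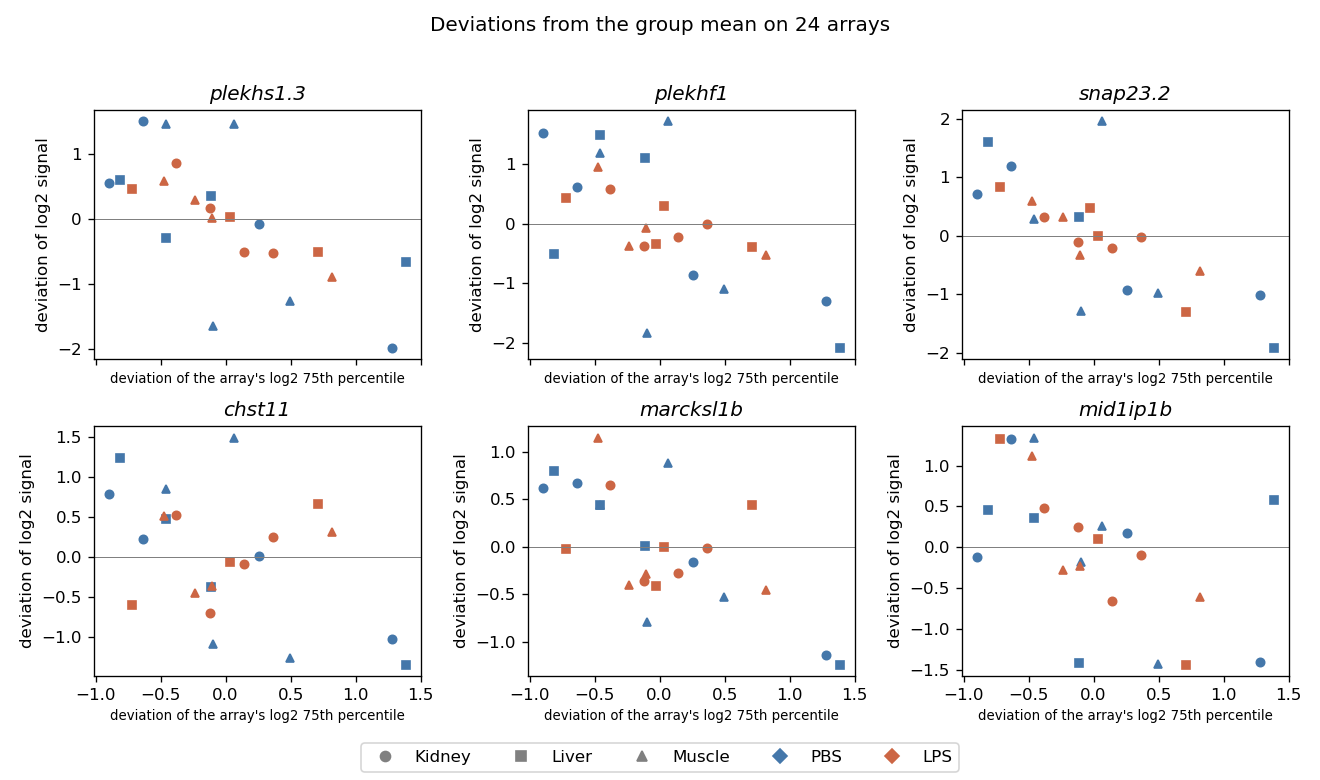
Deviation of the log2 signal from the group mean (vertical axis) against the deviation of the array's log2 75th percentile (horizontal axis) for the brightest probe of each gene, with shapes for tissues and colours for treatments. The points slope downwards in each panel, with r between -0.754 and -0.468.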

How the data were processed

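RNA of 24 pools was hybridized to one-colour Agilent arrays. Per the file headers, the authors' scanner software was Agilent Feature Extraction 10.7.3.1, whereas the submitters' processing notes name version 10.4.0.0. The array files deposited by the authors give, for every spot, a background-corrected and detrended intensity that is not scaled between arrays. The authors also deposited a table of log2 values after their own shift at the 75th percentile, in which each probe has a further offset. Away from that offset it lay within 0.01 of the values computed here for 100% of the 35715 probes without a marked spot.

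The log2 processed signal of each of the 43803 spots was set relative to the 75th percentile of its array. Outlier spots were dropped and replicate spots averaged. Probes entered a comparison if 1 or more of its arrays had a raw signal above the 20th and below the 95th percentile. Probes were named from RefSeq accessions with a table for GRCz12tu, used for names and neighbours only: 24951 of 26516 probes with an mRNA accession matched. Comparisons used limma 3.58.1 in R 4.3.3 (lmFit, eBayes) with Benjamini-Hochberg adjustment over all probes kept, and the code was checked on simulated data. Signal over background, not a read depth, sets the precision, which the number of arrays also limits.

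The 6 genes, the lists of relatives and the marker lists were chosen with earlier results of these data known. The text names the 6 genes, relatives that share their name stem, related genes that were called, and the 3 genes most like each of the 6. For other related genes named, the text says so or gives the setting in which they were called. The methods call the pools biological replicates.

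Same-numbered PBS pools of different tissues had correlated deviations from their group means (r = 0.124 to 0.712 over probes), as had same-numbered PBS and LPS arrays in the kidney (0.299 to 0.641). In the liver (-0.162 to 0.183) and the muscle (-0.267 to 0.325) PBS and LPS arrays did not throughout. Same-numbered LPS pools of different tissues gave -0.506 to 0.250. Arrays of unlike number reached 0.656, so these correlations do not settle a pairing, and no label gives one. The replicate and pool blocks take equal numbers as related, which remains unsettled.

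Alternatives were quantile normalization, a shift at the 50th percentile, normexp background correction (offset 50, on median signals, since mean signals were not used here), the authors' table, other filters, the mean of a gene's probes, an adjusted p of 0.01, slide, pool or replicate number as a block, a tissue term, a joint fit, and leaving out single arrays. Keeping marked spots and using kidney PBS replicate 4 alone were added after seeing the data. No sequences are shown.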

Additional observations from a re-analysis of the deposited data

Results flagged for a closer look

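In 5 of the 67 sets of 4 arrays tested (a probe of the 6 genes in a group), 1 array stood apart from the other 3. Chance alone gives such a flag in about 1 of 20 sets. *Marcksl1b* accounted for 4 of the 5. In LPS muscle, replicate 2 read 4.22 on its brightest probe, the others reading 2.62 to 2.79, and 3.71 on its second probe, the others reading 2.45 to 2.60. In LPS kidney, replicate 4 read 5.85 on the second probe against 4.93 to 5.08. In PBS liver, replicate 1 read -1.39 on the third probe against 0.26 to 0.34. The remaining set was *mid1ip1b* in PBS liver, where replicate 3 read -0.15 on the brightest probe and the others 1.62 to 1.84. The muscle array with high *marcksl1b* also had the highest *mid1ip1b* and *plekhf1* values of its group, 5.28 and 2.14.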

How the results depend on the processing

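Of 712 values recomputed under settings other than leaving out 1 array, 640 kept their direction and their side of the threshold or moved by less than the spread between replicates. Counts of called genes that changed only slightly are also among the 640, so a single gene could cross the threshold there. The median log2 LPS difference of the 6 genes in the kidney was 2.32 with the slide as a fixed block, against 3.42. That block uses the slide with 1 PBS array. Of the 2 genes called as lower in PBS liver than in kidney, 1 was called with normexp, with the mean of a gene's probes, at an adjusted p under 0.01, with the slide as a random block and with kidney PBS replicate 4 alone, where the single kidney array is assumed to vary like the other tissues, and 0 when every array had to lie within the filter limits. Of the 3 called against muscle, 1 was called with normexp, the stricter filter and the slide block, and 0 at an adjusted p under 0.01. The brightest probes of *plekhf1* and *plekhs1.3* failed the stricter filter, so they were not tested under it in either comparison. With the mean of its probes *plekhs1.3* lost that call, and *snap23.2* gained it with quantile normalization, the shift at the 50th percentile and the joint fit. Between muscle and kidney, where none was called, 2 were with the shift at the 50th percentile and 3 with the replicate block and in the joint fit of 6 groups. The block also added *snap23.2* for liver against muscle and the dimmer *chst11* probe for liver against kidney, and changed no call of the related genes. For the LPS difference of kidney against muscle, 1 gene, *plekhs1.3*, was called with quantile normalization, the shift at the 50th percentile, normexp and the pool as a random replicate block. In the joint fit 1 related gene, *papss2b*, was called in the liver. The cause of these changes was not tested. For most of these settings the share of all probes called was not computed, and nothing was read from the calls.

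Signs turned for small values. With normexp, *plekhs1.3* read 0.21 for PBS muscle minus kidney and *chst11* -0.23 for liver minus muscle. With kidney PBS replicate 4 alone, *chst11* read -0.12 for muscle minus kidney, and the LPS difference of kidney minus liver was -0.45 for *marcksl1b* and that of kidney minus muscle -0.17 for *plekhf1*. With the slide as a fixed block *snap23.2* differed by -0.11 in muscle.

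Leaving out 1 array at a time gave 1 to 3 genes for liver against kidney, 0 to 1 for muscle against kidney, 0 to 3 for liver against muscle, 0 to 4 for the LPS difference of kidney against muscle, and 0 to 8 related genes in the liver. The third gene in the first of these was *chst11*, through its dimmer probe. Except for the liver fits named above, the share of all probes called was not computed for these fits. The range was -0.70 to 0.092 for *marcksl1b* and -1.38 to 0.38 for *snap23.2* in liver minus kidney. In muscle minus kidney it was -0.39 to 0.53 for *chst11* and -0.88 to 0.34 for *plekhs1.3*, and in liver minus muscle -0.082 to 0.60 for *marcksl1b*. For the LPS differences it was -0.15 to 0.64 (*marcksl1b*, kidney minus liver), -0.12 to 1.07 (*plekhf1*, kidney minus muscle) and -0.35 to 0.46 (*mid1ip1b*, muscle). Without muscle PBS replicate 3 that *mid1ip1b* probe failed the filter and gave no value.

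Signal over background limited *plekhs1.3* and *chst11* most. Neither was well above background on any PBS liver array, nor was *chst11* on any PBS muscle array. With normexp the log2 LPS differences of *chst11* were 2.62, 1.96 and 0.32 in kidney, liver and muscle. In the liver normexp gave 3.37 for *plekhf1* and 1.59 for *plekhs1.3*, and quantile normalization 3.59 for *plekhs1.3*. The mean of its probes gave 1.22 for *chst11* there.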
